A study of Homo sapiens with 12 samples.

Results

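Of the 63568 gene identifiers counted in MDA-MB-231 cells grown in Matrigel, 52 were at least 1.5 times higher in each of the 8 Paclitaxel-treated libraries than in the higher of the 2 untreated libraries of the same day. Levels are given in CPM, a gene's count scaled to a library total of 1000000. To be chosen, an identifier also needed a symbol not starting with TUB and a mean of at least 5 CPM over the treated libraries, which 11134 identifiers had, so the 52 were 0.467% of those eligible. The same rule in the opposite direction, with every treated library at most 1/1.5 of the lower untreated library, was met by 21 identifiers. The levels in the treated and in the untreated day 4 libraries chose the members, so that their height over these controls is a description and carries no test.

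MDA-MB-231 is a triple negative breast cancer line, here wild type, labelled with GFP, mixed into Matrigel and placed as droplets on a glass-bottom plate. The study asked whether cells that sink in such cultures move actively, with Paclitaxel used to stop them. By the labels, it sampled untreated cells on day 2 (C1) and day 4 (C2), and cells given 0.0005, 0.005, 0.05 or 0.5 μM Paclitaxel on day 2 and taken on day 4, with 2 libraries per condition. The methods of the imaging experiment, whose procedure the RNA experiment repeated, give a later day for the drug than that of the RNA sampling, so the time of exposure rests on the labels alone. All 12 samples come from 1 cell line, the labels name no vehicle control, and the untreated day 2 libraries differ from the treated ones in day as well as drug.

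Paclitaxel binds microtubules and stabilizes them, which disturbs the mitotic spindle and cell shape. Cells under such stress are known to switch on genes of immediate signalling, of inflammation and of damage control, while matrix metalloproteinases, secreted enzymes that cut collagen and other matrix proteins, are classical targets of the Fos and Jun (AP-1) transcription factors. Replication-dependent histone genes are normally transcribed in S phase, and their mRNAs end in a stem-loop rather than a poly(A) tail.

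The libraries held between 38380629 and 79169121 counts. Mesenchymal breast line markers summed to 4881 to 5547 CPM in untreated and 4560 to 5220 CPM in treated libraries. The 9 luminal breast markers summed to 187 to 285 CPM untreated and 199.99 to 323 CPM treated, most of it KRT19 at 150.3 to 274 CPM, with 5 of the 9 untreated and 6 treated at a mean of at least 1 CPM, while ESR1, PGR and CDH1 stayed below 1 CPM in every library. Summed markers of other cell types were low but higher in the treated libraries, with ranges of 0.651 to 1.19 against 1.69 to 3.5 CPM for 7 macrophage genes and 0.547 to 1.63 against 2.23 to 3.80 CPM for 5 endothelial genes, of which only CSF1R and KDR reached 1 CPM, in treated libraries. For 7 lymphocyte genes the ranges were 0.152 to 0.404 and 0.805 to 1.26 CPM, with every gene below 1 CPM in every library. The 7 fibroblast genes summed to 8.05 to 15.7 CPM untreated and 11.8 to 24.8 CPM treated, and the part of these cell types in the levels of the 52 genes was not tested. More identifiers had a count in each treated library (34591 to 39480) than in any untreated one (30608 to 33824), and the part of this in the levels was not tested. In bulk RNA, fewer cells expressing a gene and less of its RNA per cell cannot be told apart.

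The promoters of the members show what sequence lies beside genes that share this pattern. The set of RefSeq promoters (GRCh38.p14) used here, read as a single promoter per symbol, held 34 of the 52. Other promoters of a gene were not searched. The 250 bases before each start were searched on both strands for 7 known motifs. The AP-1 site TGANTCA was present in 7 of the 34 (20.6%), against 6.60% of 27305 promoters and 3.78% of 8815 promoters of eligible genes. TATAAA, the letters of the TATA core promoter element, was present at any position of the 250 bases in 9 of the 34 (26.5%), against 11.1% of all and 5.09% of eligible promoters. A match is a description of the letters only. The stretches with the AP-1 site are shown 5′ to 3′ on the strand of the gene, with up to 20 bases on either side and the site in capitals.
ARRDC4 (chr15:97960564-97960610, + strand): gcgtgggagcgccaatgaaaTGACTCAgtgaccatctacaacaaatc
DDIT3 (chr12:57520729-57520764, - strand): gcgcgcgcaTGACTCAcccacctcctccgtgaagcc
IL1A (chr2:112784494-112784525, - strand): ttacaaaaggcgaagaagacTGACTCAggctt
IL1RL1 (chr2:102337046-102337092, + strand): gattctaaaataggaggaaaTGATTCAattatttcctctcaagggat
OSGIN1 (chr16:83953123-83953169, + strand): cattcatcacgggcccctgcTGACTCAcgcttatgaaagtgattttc
SERPINB2 (chr18:63887583-63887629, + strand): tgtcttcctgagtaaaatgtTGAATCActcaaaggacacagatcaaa
SLC43A2 (chr17:1605042-1605088, - strand): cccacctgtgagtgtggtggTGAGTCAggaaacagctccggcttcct

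The site lay between 12 and 241 bases before the start in these genes, nearest in IL1A and farthest in DDIT3. Among the 10 members whose level fell with dose, described further on, 5 had a promoter entry, and TATAAA was found in 4 of these, shown here with these letters in capitals.
IL1A (chr2:112784707-112784743, - strand): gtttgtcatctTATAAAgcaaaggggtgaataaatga
INHBA (chr7:41703091-41703121, - strand): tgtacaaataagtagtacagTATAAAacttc
S100P (chr4:6693830-6693875, + strand): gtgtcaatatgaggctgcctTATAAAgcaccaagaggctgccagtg
SERPINB2 (chr18:63887655-63887700, + strand): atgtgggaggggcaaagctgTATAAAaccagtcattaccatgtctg

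These letters began 30 bases before the start in SERPINB2, 28 in S100P, 11 in INHBA and 239 in IL1A, and whether they act as a promoter element was not tested. The other 5 motifs gave smaller differences or few matches. CCAAT was found in 15 of 34 member promoters (44.1%, against 35.7% of eligible ones), CACGTG in 3 (8.82% against 9.23%) and the antioxidant element core TGACNNNGC in 2 (5.88% against 12.1%). The NF-kB site was found in 1, IL32 (2.94% against 2.06%, and 1.73% of all promoters), and the amino acid response core TGATGNAAT in 1, S100P (2.94% against 0.420%, and 0.916% of all promoters). TGACNNNGC and TGANTCA can overlap, and NF-kB denotes a family of transcription factors of inflammation.

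The 52 genes together made up 745 and 783 CPM in the untreated day 4 libraries and between 1899 and 2678 CPM in the treated ones, where both 0.05 μM libraries were highest. Their median log2 ratio of treated to day 4 untreated levels, with 0.5 CPM added to both, was 1.44, against -0.04 over the eligible genes. Ratios of the treated to the day 4 mean ran from 1.70 in TRIM16L to 39.4 in SERPINB2. SERPINB2, IL24, DHRS2, MMP3, IL1RL1, H4C8, H4C14, H4C15, MMP13 and MMP1 had the highest ratios. TXNIP, EGR1, MMP1, IFI16, H1-2, KYNU, GADD45A, HES1, PDRG1 and HMOX1 had the highest treated CPM, a scale that is not corrected for gene length.

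**Figure D1:**
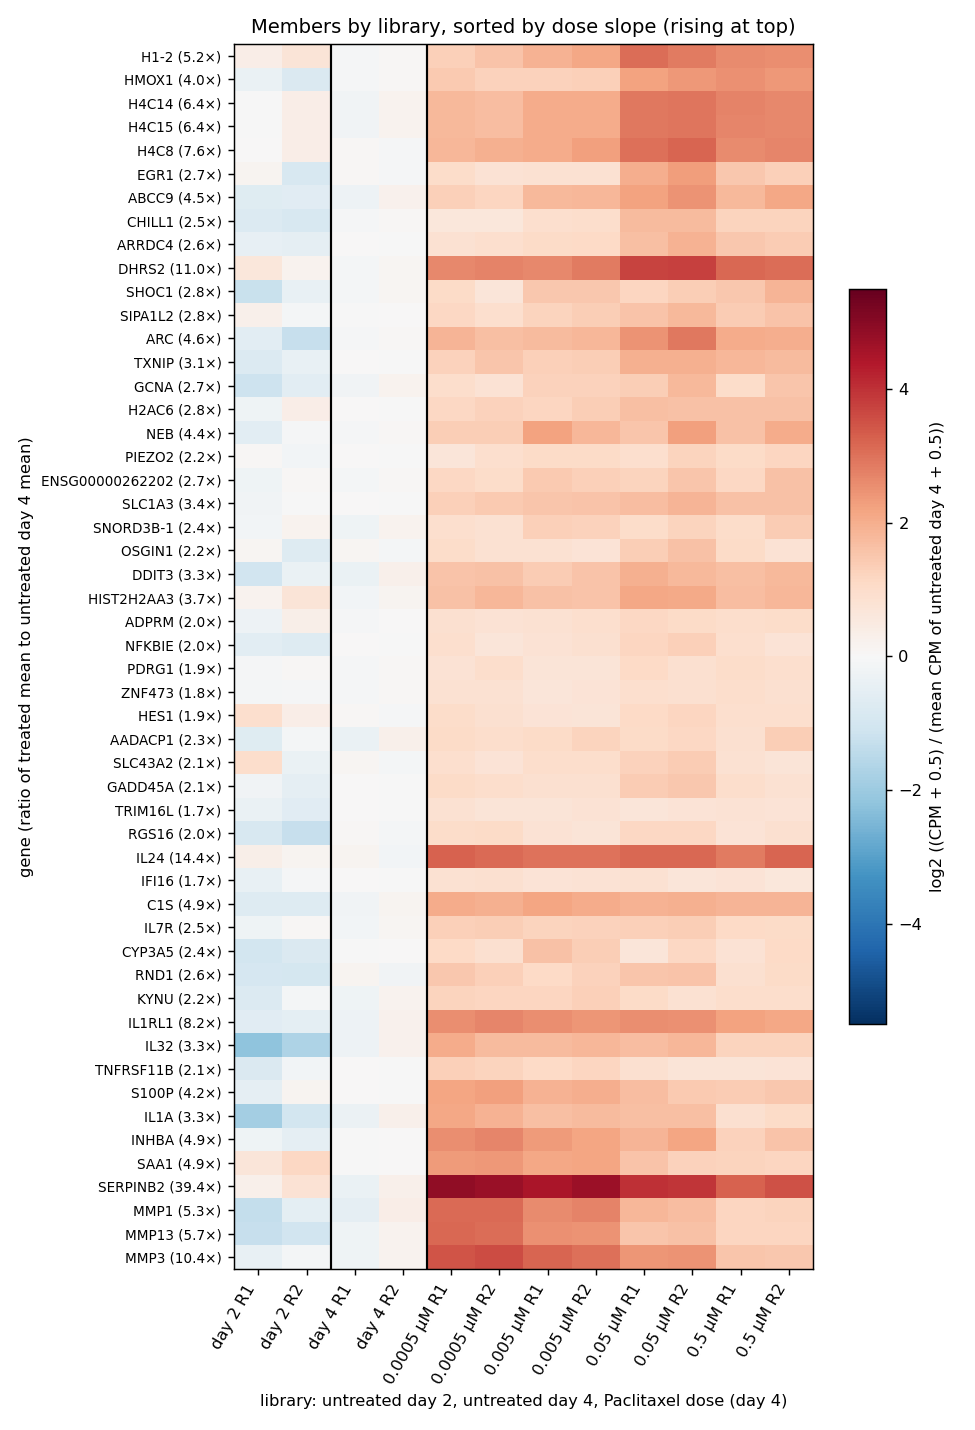
Log2 ratio of each library's CPM (plus 0.5) to the mean of the untreated day 4 libraries (plus 0.5), for the 52 genes in rows and the 12 libraries in columns, with the ratio of the treated to the day 4 mean in brackets. Every treated column is red for every gene, which the rule required, and the rows run from genes whose level rose with dose at the top, such as HMOX1, to genes whose level fell, such as MMP3 with a ratio of 10.4, at the bottom.

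How the members differed between doses was tested among the 8 treated libraries alone, a contrast between doses that the rule did not use. The rule did use the levels of these libraries, since every one had to pass the same bound, which keeps out genes that return to the untreated level at some dose but does not set the direction of a slope. The minimum mean of 5 CPM over these libraries also took part, and SAA1, among the falls below, passed it only through its lower doses. The shares of all tested or eligible genes given as background were not selected by the fold of the rule, and the tested genes include genes below the minimum of 5 CPM. A slope is the change in log2 expression per 10-fold higher dose. Its standard error, like that of the log2 differences below, was derived from the F statistic of the test. In edgeR's quasi-likelihood test, adjusted by Benjamini-Hochberg over 25057 genes, 13 members were called (background 3.15%), of which 10 members had a slope below 0 (background 2.11%) and 3 a slope above 0 (background 1.04%) at an adjusted p under 0.05. Of the 11134 eligible genes, which share the minimum level of the members, 372 had a slope called lower and 123 a slope called higher. The 52 were all tested, and 27 had an unadjusted p under 0.05, as did 4613 of all 25057 genes (18.4%). H4C14 and H4C15, whose counts nearly coincide, are both among the 13 and the 3.

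The matrix metalloproteinase genes and several genes of secreted factors fell with dose. MMP1, interstitial collagenase, had 22.4 and 40.9 CPM in the untreated day 4 libraries. It had 282 and 278 CPM at 0.0005 μM, 197 and 213 at 0.005 μM, 114 and 104 at 0.05 μM and 71.4 and 73.6 at 0.5 μM. The doses did not overlap, MMP1 was highest at the lowest dose, and at 0.5 μM MMP1 was still above both untreated libraries. Its slope was -0.72 ± 0.05 (adjusted p = 4.87e-07, edgeR's quasi-likelihood test, Benjamini-Hochberg adjustment).

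MMP3, stromelysin, which cuts several matrix proteins and activates other metalloproteinases, had 0.743 and 1.15 CPM untreated on day 4. The treated values were 15.5 and 17 CPM at 0.0005 μM, 12.7 and 11.4 at 0.005 μM, 7.23 and 7.42 at 0.05 μM and 3.63 and 3.51 at 0.5 μM. Again each dose lay below the one before it. The slope of -0.76 ± 0.05 was the steepest fall among the members (adjusted p = 4.87e-07, the same test).

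MMP13, another collagenase, had 2.02 and 2.9 CPM untreated on day 4, and then 25.9 and 24.3, 16.6 and 16, 8.03 and 8.42 and 6.17 and 6.25 CPM in the pairs of libraries from the lowest to the highest dose. It followed the same order, with a slope of -0.75 ± 0.05 (adjusted p = 4.87e-07, the same test). MMP1, MMP3 and MMP13 lie in the metalloproteinase cluster of chromosome 11 (chr11:102660132-102826461, GRCh37), and the promoter set used here held none of the 3.

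SERPINB2, plasminogen activator inhibitor 2, was barely detected without drug, at 0.258 and 0.687 CPM on day 4, from 16 and 37 reads. It had 28 and 25.7 CPM at 0.0005 μM, 21.5 and 25 at 0.005 μM, 15.2 and 14.4 at 0.05 μM and 8.6 and 10.6 at 0.5 μM. All treated libraries stood far above the untreated ones, and the 2 lower doses above the 2 higher. The ratio of 39.4 to the day 4 mean rests on few reads and was 72.1 without the second of these untreated libraries. The slope was -0.55 ± 0.05 (adjusted p = 7.82e-06, edgeR's quasi-likelihood test, Benjamini-Hochberg adjustment).

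INHBA, which encodes the subunit of activin A, had 3.41 and 3.64 CPM untreated on day 4. It had 23 and 25.4 CPM at 0.0005 μM, 19.6 and 17.5 at 0.005 μM, 14.1 and 17.7 at 0.05 μM and 9.12 and 11.5 at 0.5 μM. The 0.005 and 0.05 μM libraries overlapped, while the lowest dose was above all others and the highest below all others. The slope was -0.44 ± 0.04 (adjusted p = 8.25e-05, the same test).

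The acute-phase protein gene SAA1 had 1.02 and 1.1 CPM untreated on day 4 and 7.34 and 7.63 CPM at 0.0005 μM against 3.17 and 3.07 at 0.5 μM. Its slope was -0.50 ± 0.06 (adjusted p = 0.000526, edgeR's quasi-likelihood test, Benjamini-Hochberg adjustment). The treated mean of SAA1, 5.19 CPM, was just above the minimum of 5 CPM. Its dose means were 7.49, 6.45, 3.69 and 3.12 CPM from the lowest to the highest dose. SAA1 thus passed through its levels at 0.0005 and 0.005 μM, so its fall is not independent of the rule. S100P, a calcium-binding protein gene, went from 10.1 and 10.7 CPM at 0.0005 μM to 5.69 and 6.09 at 0.5 μM, against 1.92 and 1.84 untreated on day 4. TNFRSF11B, osteoprotegerin, a decoy receptor of the TNF family, showed a shallower fall, from 19.8 and 18.5 to 12.5 and 13.2 CPM, with 7.77 and 7.39 untreated. Slopes were -0.33 ± 0.05 in S100P (adjusted p = 0.0027) and -0.25 ± 0.04 in TNFRSF11B (adjusted p = 0.0072, the same test). C1S, a protease of the complement system, was nearly flat across doses, between 6.63 and 8.24 CPM against 1.23 and 1.71 untreated on day 4 (slope -0.10 ± 0.04, adjusted p = 0.211, the same test).

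**Figure D2:**
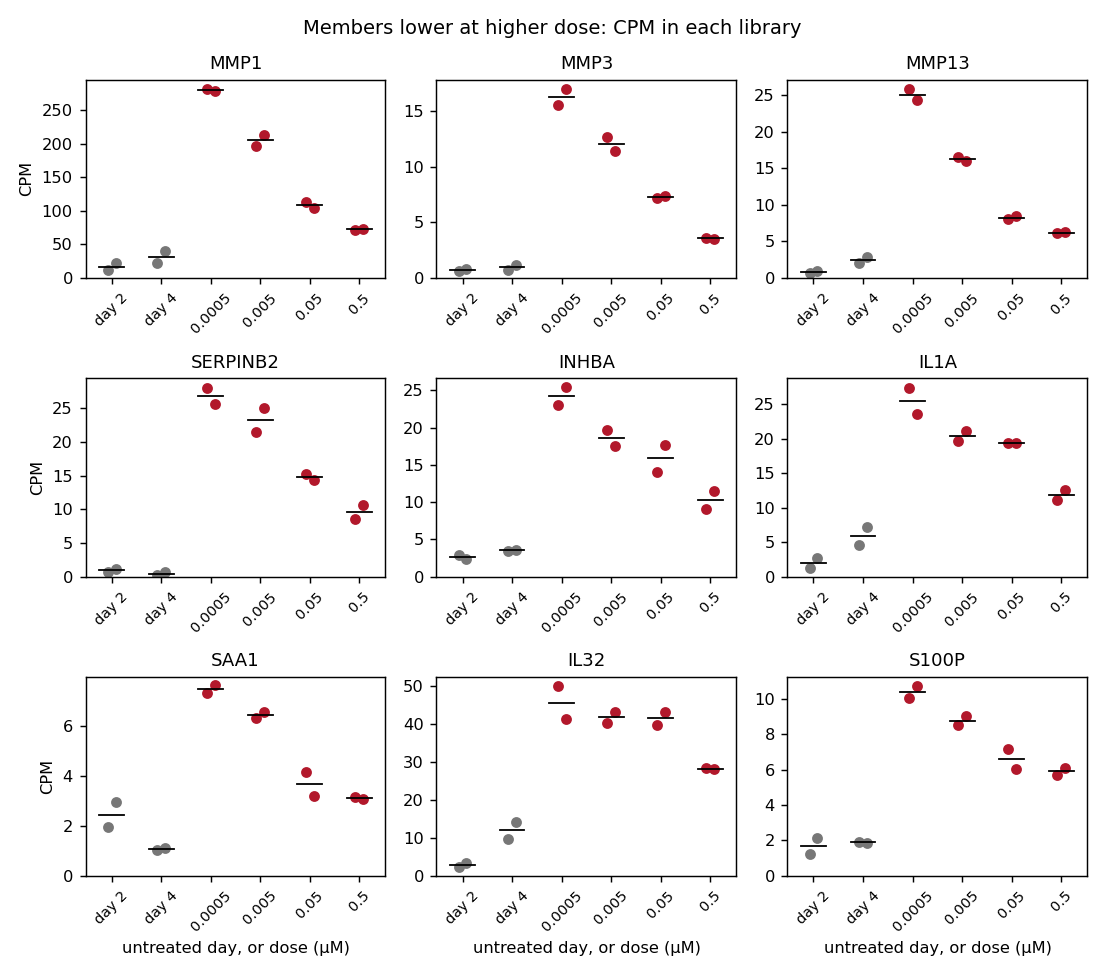
CPM in each library for 9 genes whose level fell with dose, with grey points for untreated day 2 and day 4, red points for the 4 doses in μM and a bar at each mean of 2 libraries, each panel with its own axis from 0. In each panel the highest mean is at 0.0005 μM and the lowest treated mean at 0.5 μM, which for MMP1 still lies above the untreated points.

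Of the 40 genes in a list of mesenchymal and matrix genes, 36 were tested, 5 had a slope called lower and 1 a slope called higher, and MMP1 and MMP3 were its only members here. Its 24 other eligible genes had a median log2 fold change of treated to day 4 untreated of -0.10, the same as over all eligible genes that are not members.

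The members that encode cytokines and their receptors differed in how they followed dose. IL24, a cytokine of the IL-10 family, had 0.759 and 0.52 CPM untreated on day 4. It had 10.2 and 9.49 CPM at 0.0005 μM, 8.55 and 8.49 at 0.005 μM, 9.7 and 9.77 at 0.05 μM and 7.68 and 9.98 at 0.5 μM. The 2 libraries of 0.5 μM spanned the 0.05 and 0.005 μM ones, and no trend was called, with a slope of -0.07 ± 0.05 (adjusted p = 0.485, edgeR's quasi-likelihood test, Benjamini-Hochberg adjustment).

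IL1A, interleukin 1 alpha, an alarm signal released by stressed and dying cells, had 4.59 and 7.19 CPM untreated on day 4. It had 27.4 and 23.5 CPM at 0.0005 μM, 19.8 and 21.1 at 0.005 μM, 19.5 and 19.4 at 0.05 μM and 11.2 and 12.6 at 0.5 μM. The 2 middle doses of IL1A were close to each other, with the 0.0005 μM libraries above and the 0.5 μM libraries below the rest (slope -0.37 ± 0.05, adjusted p = 0.00054, the same test).

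IL32, a cytokine gene induced in inflammation, had 9.61 and 14.2 CPM untreated on day 4 and 49.9 and 41.3, 40.3 and 43 and 39.8 and 43.1 CPM at the 3 lower doses. At 0.5 μM it had 28.3 and 28.1 CPM, below every other treated library, while the 3 lower doses overlapped. Its slope was -0.25 ± 0.04 (adjusted p = 0.00541, the same test), and without the first 0.0005 μM library the adjusted p was 0.0843. The call for TNFRSF11B was likewise lost without that library (adjusted p = 0.0857, the same test).

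IL1RL1, the receptor of interleukin 33, had 0.598 and 1.08 CPM untreated on day 4 and between 5.28 and 8.16 CPM in the treated libraries, where 0.5 μM was lowest at 5.66 and 5.28 CPM. The slope missed the threshold (adjusted p = 0.0605, edgeR's quasi-likelihood test, Benjamini-Hochberg adjustment). IL7R, the interleukin 7 receptor, ranged from 19 to 23.4 CPM treated against 7.96 and 9.69 untreated. NFKBIE, an inhibitor of NF-kB, ranged from 30.2 to 46.9 against 18.8 and 18.6, and KYNU, kynureninase of tryptophan breakdown, from 76.7 to 107 against 36.1 and 49. None of the 3 had a called slope. RGS16, which damps G protein signalling, ranged from 8.54 to 11.8 CPM against 5.39 and 4.74, and IFI16, an interferon-inducible DNA sensor, from 118 to 139 against 75.7 and 75.6.

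Of 28 tested genes in a list of inflammatory cytokines, chemokines and NF-kB feedback genes, 18 had a slope called lower, and IL1A, IL24 and IL32 were its members here. Of the 20 other eligible genes of the list, 11 (55.0%) were above the day 4 untreated level in the fit, against 34.1% of the 11082 eligible genes that are not members, and their median log2 fold change was 0.16 against -0.10. A list of interferon-stimulated genes held 0 members among 43 eligible genes, where the share of all eligible genes that were members was 0.467%. Of these 43, 31 (72.1%, background 34.1%) were above the day 4 untreated level (median log2 fold change 0.10), and of 53 tested, 29 had a slope called lower and 0 a slope called higher.

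The histone genes were highest at 0.05 μM, and H4C14 and H4C15 rose with dose. H1-2, a linker histone, had 22.9 and 24.9 CPM untreated on day 4. It had 59.9 and 71.5 CPM at 0.0005 μM, 92.5 and 106 at 0.005 μM, 204 and 177 at 0.05 μM and 149 and 141 at 0.5 μM. The doses of H1-2 did not overlap, and 0.05 μM was highest. On log10 dose the slope of 0.41 ± 0.10 missed the threshold (adjusted p = 0.0543, edgeR's quasi-likelihood test, Benjamini-Hochberg adjustment).

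H4C8, a histone H4 gene, had 1.37 and 1.24 CPM untreated on day 4 and 5.95 and 6.58, 6.97 and 8.19, 14.5 and 16 and 10.5 and 11.1 CPM from the lowest to the highest dose, in the same order of doses as H1-2. H4C14 had 1.68 and 2.36 CPM untreated on day 4 and 8.29 and 7.74, 9.75 and 9.78, 18.2 and 18.8 and 16 and 15.2 CPM from the lowest to the highest dose. Its slope was 0.35 ± 0.07 (adjusted p = 0.013, the same test), and the call was lost when either 0.0005 μM library was left out (adjusted p = 0.111 and 0.0793). H4C15 gave nearly the same values, since its counts differed from those of H4C14 by at most 1% in every library. The 2 identifiers are therefore not independent measurements, and how reads were assigned between them was not tested.

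The core histone genes H2AC6 and HIST2H2AA3 were highest at 0.05 μM as well, at 31.7 and 31.1 and at 32.2 and 31.3 CPM, against 9.9 and 9.53 and 6.23 and 7.89 CPM untreated on day 4. Their slopes were not called (adjusted p = 0.146 and 0.846, edgeR's quasi-likelihood test, Benjamini-Hochberg adjustment). HIST2H2AA3 has near-identical copies in the genome, and their effect on its count was not tested. ZNF473, a zinc finger protein of histone pre-mRNA processing, was between 24.2 and 29.7 CPM in the treated libraries against 14.3 and 15.5 untreated.

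A list of replication-dependent histones matched 18 identifiers, of which 7 were eligible and 4 were members (H1-2, H2AC6, H4C14 and H4C8). The rule set the 4 members above the day 4 untreated level, and the 3 other eligible genes were above it in the fit as well, at a median log2 fold change of 1.04 (background -0.10). Of 13 tested, 5 had a slope called higher. How the libraries selected RNA (poly(A) or ribosomal depletion) is not given in the sources used here, and its part in the histone levels was not tested.

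Of the eligible genes in lists of stress responses, 2 of 20 NRF2 and antioxidant genes were members, 1 of 24 for ER stress, 1 of 23 p53 targets and 0 of 16 heat shock genes, against 0.467% of all eligible genes. HMOX1, heme oxygenase 1, an NRF2 target that breaks down heme, had 9.8 and 10.6 CPM untreated on day 4. It had 28.2 and 25.1 CPM at 0.0005 μM, 25.2 and 26.2 at 0.005 μM, 49.1 and 55 at 0.05 μM and 61.5 and 54.6 at 0.5 μM. The 2 lower doses overlapped, the 2 higher doses overlapped, and the higher pair lay above the lower pair throughout. The slope was 0.39 ± 0.07 (adjusted p = 0.0096, the same test).

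OSGIN1, another gene of the oxidative stress response, was highest at 0.05 μM, at 18 and 21.2 CPM, against 7.25 and 6.07 untreated on day 4. Of 20 genes in a list of NRF2 and antioxidant genes, HMOX1 was the 1 with a called rise. Of the 18 that are not members, 10 (55.6%, background 34.1%) were above the day 4 untreated level, at a median log2 fold change of 0.03.

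TXNIP, an arrestin that binds thioredoxin and limits glucose uptake, had 152 and 146 CPM untreated on day 4. It had 357 and 432 CPM at 0.0005 μM, 369 and 383 at 0.005 μM, 583 and 578 at 0.05 μM and 536 and 499.9 at 0.5 μM. The 2 lower doses of TXNIP overlapped and lay below the 2 higher. ARRDC4, a related arrestin gene, was highest at 0.05 μM as well, at 29.7 and 36 CPM, against 9.29 and 8.84 untreated on day 4 and 16.8 and 17.8 at 0.0005 μM.

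DDIT3, which encodes the stress transcription factor CHOP, had 9.35 and 15 CPM untreated on day 4 and 33.1 to 48.5 CPM treated, with no called slope (adjusted p = 0.789, edgeR's quasi-likelihood test, Benjamini-Hochberg adjustment). It was the only member in a list of 24 ER stress and amino acid response genes, where 10 of the 23 others (43.5%, background 34.1%) were above the day 4 untreated level and the median log2 fold change was -0.07. GADD45A, a growth arrest gene and p53 target, had 37.1 and 35.3 CPM untreated on day 4 and peaked at 94.7 and 103 CPM at 0.05 μM. It was the only member in a list of 25 p53 targets, where 9 of the 22 other eligible genes (40.9%, background 34.1%) were above the day 4 untreated level and the median was -0.03.

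DHRS2, a short-chain dehydrogenase, had 1.65 and 1.93 CPM untreated on day 4. It had 14 and 14.8 CPM at 0.0005 μM, 13.6 and 16.3 at 0.005 μM, 29.2 and 30.9 at 0.05 μM and 20.1 and 18.7 at 0.5 μM. The 2 lower doses overlapped and 0.05 μM was highest, and a straight slope was not called (adjusted p = 0.357, the same test).

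EGR1, an immediate early transcription factor, had 124 and 114 CPM untreated on day 4. It had 239 and 205 CPM at 0.0005 μM, 209 and 214 at 0.005 μM, 478 and 579 at 0.05 μM and 330.5 and 294 at 0.5 μM. The peak at 0.05 μM stood above every other library, and the 2 lower doses overlapped. EGR1 was the only member in a list of 28 immediate early genes, and of the 25 other eligible ones 6 (24.0%, background 34.1%) were above the day 4 untreated level, with a median log2 fold change of -0.39 (background -0.10). ARC, an activity-regulated gene induced like the immediate early genes, went from 4.96 and 5.61 CPM untreated on day 4 to 31.2 and 42.4 at 0.05 μM and 23 and 22.8 at 0.5 μM.

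**Figure D3:**
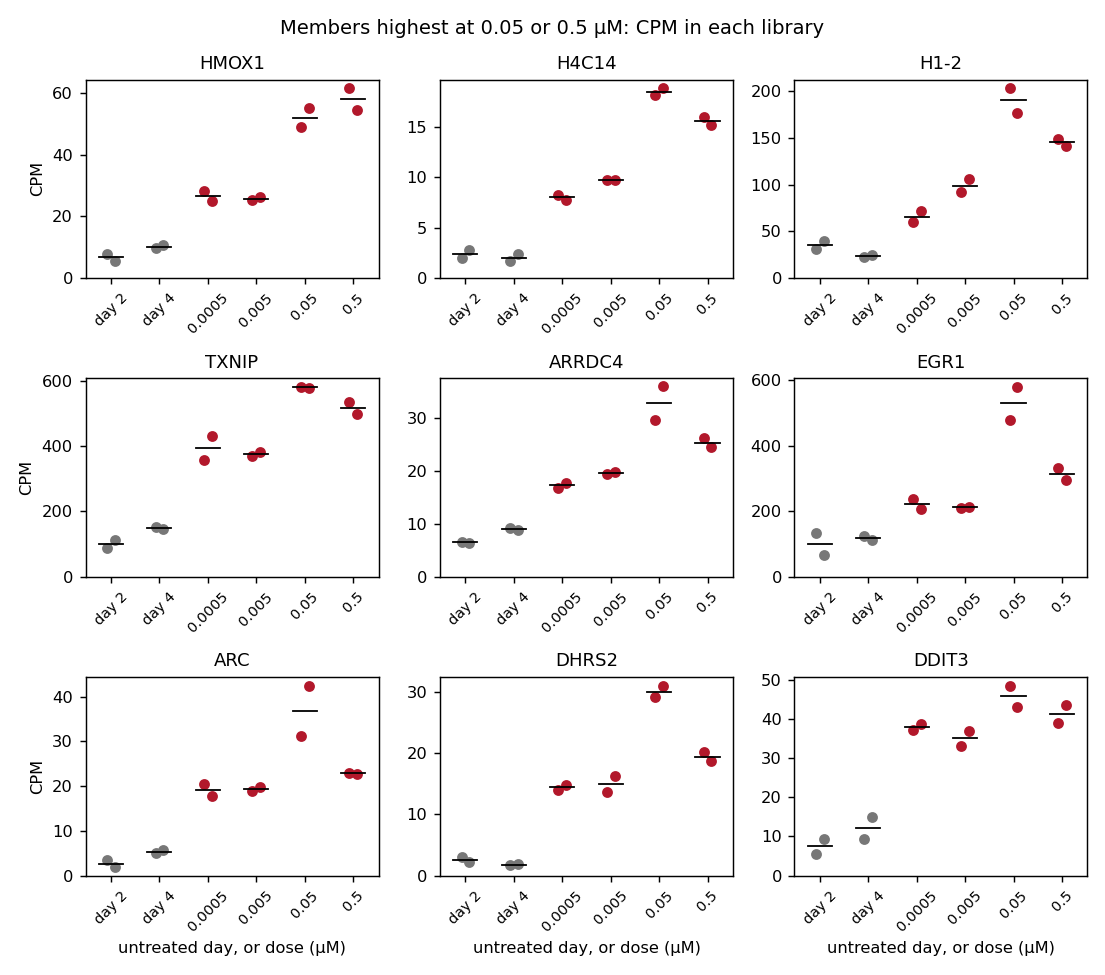
CPM in each library for 9 genes whose treated mean was highest at 0.05 or 0.5 μM, with grey points for untreated day 2 and day 4, red points for the 4 doses in μM and a bar at each mean of 2 libraries, each panel with its own axis from 0. EGR1, ARC and DHRS2 peak at 0.05 μM, HMOX1 lies at 61.5 and 54.6 CPM at 0.5 μM, and DDIT3 is lowest among the doses at 0.005 μM.

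The treated mean was highest at 0.05 μM in 27 members (51.9%, against 35.5% of eligible genes) and at 0.0005 μM in 14 (26.9%, against 15.9%). It was highest at 0.005 μM in 6 members (11.5%, against 23.2%) and at 0.5 μM in 5 (9.62%, against 25.5%). Both 0.05 μM libraries were above the other 6 treated libraries in 22 of the 52 members (42.3%), against 16.1% of eligible genes. Both 0.0005 μM libraries were above the other 6 in 10 members (19.2%, background 6.2%), both 0.005 μM libraries in 2 (C1S and CYP3A5, background 4.84%) and both 0.5 μM libraries in 0 members (background 9.29%). At the other end, both 0.5 μM libraries were below the other 6 in 12 members (23.1%, background 8.29%) and both 0.0005 μM libraries in 14 (26.9%, background 17.8%). The 0.005 μM libraries were below the others in 4 (background 1.34%), and the 0.05 μM libraries in 0 (background 6.13%).

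A test of any difference between the 4 doses was added after these peaks had been seen. It called 27 of the 52 members (background 5.18%) in edgeR's quasi-likelihood test, adjusted by Benjamini-Hochberg. Those without a called slope included EGR1 (adjusted p = 7.88e-05), DHRS2 (adjusted p = 0.00063), ARC (adjusted p = 0.000662), H1-2 (adjusted p = 0.000357) and H4C8 (adjusted p = 0.000374) by the same test. TXNIP missed the threshold (adjusted p = 0.0646, the same test).

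Comparing the ends of the dose range gave fewer calls. Between 0.5 and 0.0005 μM, in a fit of all 12 libraries, 6 members were lower (background 0.337%) and 2 higher (background 0.0753%) at 0.5 μM, in edgeR's quasi-likelihood test, adjusted by Benjamini-Hochberg. The 6 were MMP3, MMP13, MMP1, SERPINB2, SAA1 and INHBA, of which SAA1 passed the minimum level only through its lower doses. The log2 difference was -2.32 ± 0.20 in MMP3 (adjusted p = 0.000387) and -2.14 ± 0.18 in MMP13 (adjusted p = 0.000307) by the same test. HMOX1 differed by 1.0 ± 0.15 (adjusted p = 0.0154) and H1-2 by 1.01 ± 0.19 (adjusted p = 0.0456) by the same test. Leaving out 1 library moved the members called from 8 to between 2 and 20 and all genes called from 104 to between 6 and 1412, with 1314 and 1412 genes called without a C1 library, which is in neither arm. Of the 8, MMP3 and MMP13 kept the call when any single library was left out, and the other 6 lost it without at least 1 library. H1-2 also lost it with RLE scaling (adjusted p = 0.0527, the same test).

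**Figure D4:**
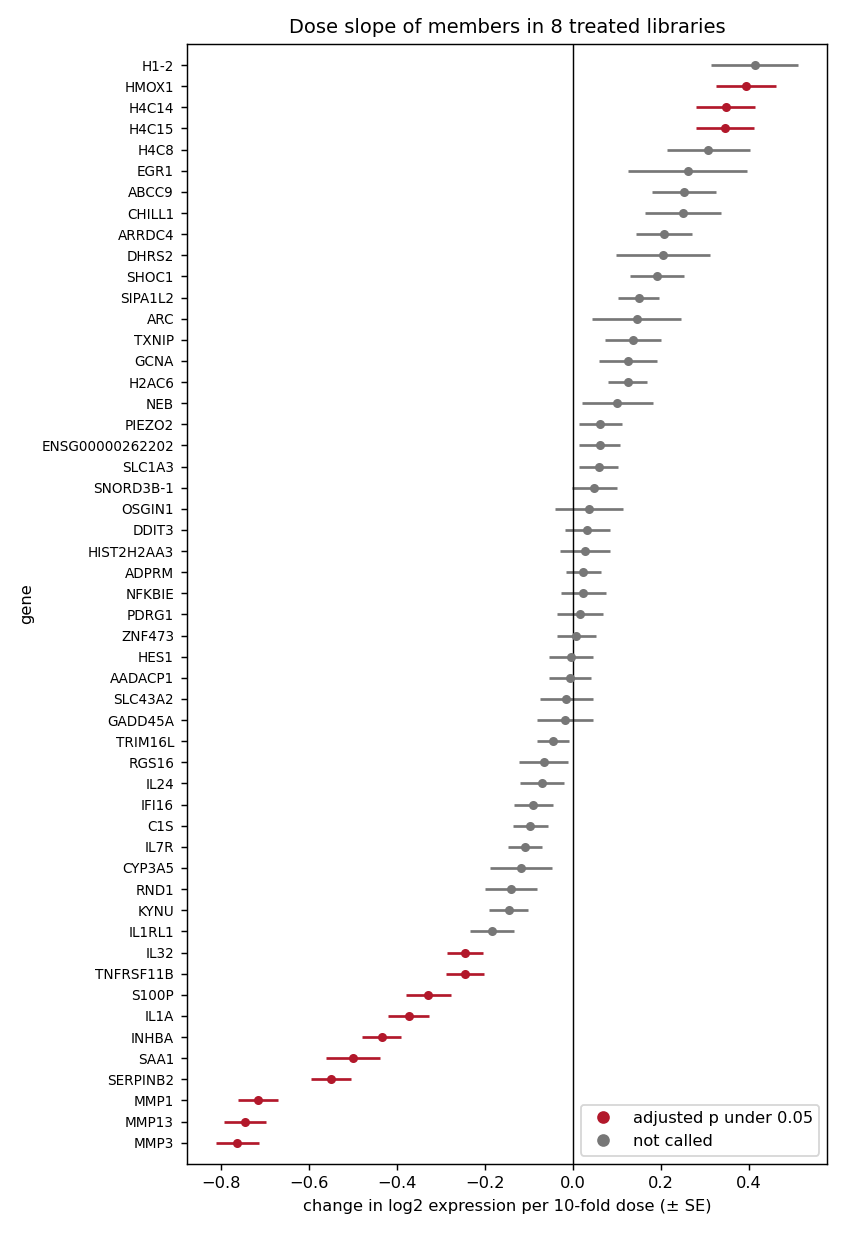
Slope of log2 expression per 10-fold dose, with its standard error, for the 52 genes in the 8 treated libraries, in order of the slope, with slopes called at an adjusted p under 0.05 in red. The 10 called falls end at MMP3 (-0.76 ± 0.05), and the 3 called rises are HMOX1 and the nearly coincident pair H4C14 and H4C15.

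The untreated day 2 libraries took no part in choosing the members, though the treated libraries they are set against did. The eligible genes were not chosen for high treated levels, and in them the untreated days were close (median log2 ratio of day 2 to day 4 of -0.08). Nothing is therefore read from the differences between the shares given next. All 8 treated libraries were above both day 2 libraries in 50 of the 52 members, against 13.5% of eligible genes, and 48 were at least 1.5 times higher in each (background 1.47%). The median log2 ratio of treated to day 2 levels was 1.98 in the members and 0.02 in the eligible genes. HES1, a Notch target, and SLC43A2, an amino acid transporter, were the exceptions. HES1 had 65.3 and 44 CPM on day 2 and 35.9 and 32.2 on day 4, and only 3 of its 8 treated libraries, which ran from 55.3 to 78.6 CPM, were above both day 2 values. SLC43A2 had 10.1 and 3.7 CPM on day 2 and 8.6 to 14.1 treated, with 4 of 8 libraries above, so that 1 of the day 2 libraries decides it.

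Relative to day 2, SERPINB2 (19.95-fold), IL1RL1 (17.2-fold), MMP13 (16.7-fold), IL32 (14.2-fold) and MMP3 (13.6-fold) were highest. Between the untreated days, both day 2 libraries were below both day 4 libraries in 24 members (46.2%), against 24.7% of eligible genes. Both were above in 6 (11.5%, against 5.95%). The rule used the day 4 levels, which had to be low beside the treated ones, and the eligible genes were not selected in this way, so nothing is read from the differences between these shares. IL32 was one of the first kind, at 2.2 and 3.31 CPM on day 2 against 9.61 and 14.2 on day 4. SAA1 was one of the second, at 1.96 and 2.94 against 1.02 and 1.1 CPM.

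**Figure D5:**
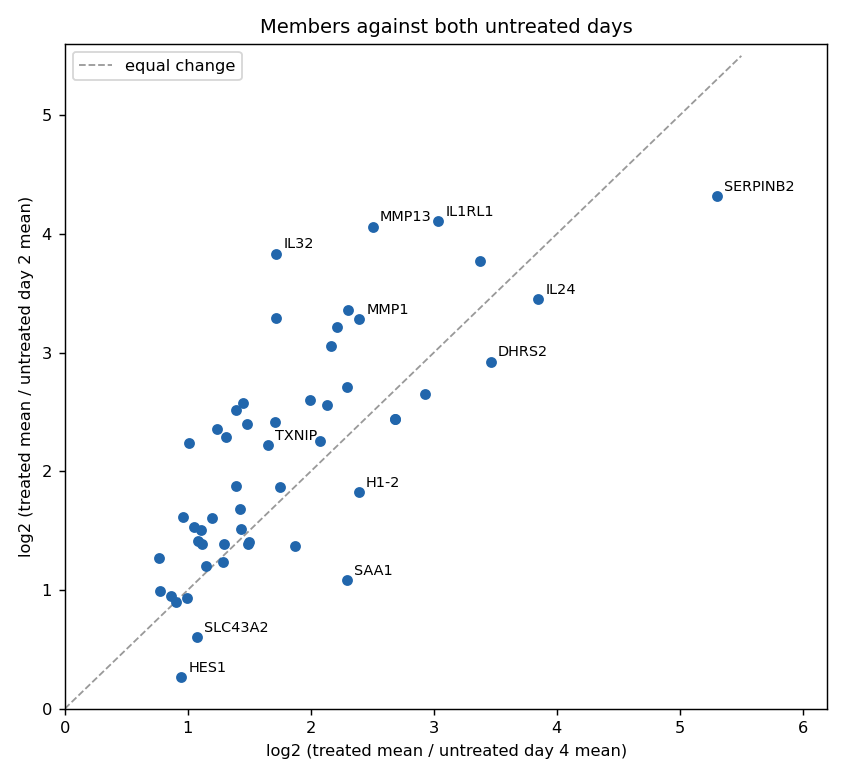
Log2 ratio of the treated mean to the untreated day 4 mean (horizontal) and to the untreated day 2 mean (vertical) for the 52 genes, 1 point each, with a dashed line where both are equal. IL32 and MMP13 lie above the line, SAA1 and H1-2 below it, and HES1, whose day 2 level was close to the treated one, lies lowest.

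The remaining members fell outside these groups, and of those named here ABCC9, CHILL1, SHOC1 and SIPA1L2 were called in the test of any difference between doses (adjusted p = 0.0033, 0.000812, 0.0278 and 0.0441, edgeR's quasi-likelihood test, Benjamini-Hochberg adjustment). ABCC9, a subunit of potassium channels, and SLC1A3, a glutamate transporter, had 1.34 and 2.17 and 2.92 and 2.8 CPM untreated on day 4 and reached 12.1 and 11.9 CPM in a 0.05 μM library. PIEZO2, a mechanically gated ion channel, went from 2.78 and 2.66 CPM to between 4.57 and 7.06. CYP3A5, a drug-metabolising cytochrome P450, went from 2.78 and 2.93 CPM to between 4.78 and 9.73. SHOC1 and GCNA, genes of the germ line, reached 13.3 and 8.6 CPM, and NEB, the giant muscle protein nebulin, 8.66. SIPA1L2, PDRG1, ADPRM, CHILL1, SNORD3B-1, AADACP1, TRIM16L and an unnamed long noncoding RNA (ENSG00000262202) had ratios to the day 4 mean of 2.81, 1.87, 1.99, 2.48, 2.44, 2.29, 1.7 and 2.7.

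By type, 47 members were protein coding, 2 long noncoding, 1 a small nucleolar RNA and 2 pseudogenes, AADACP1 and TRIM16L. The longest transcript had a median of 2159 bases in the members and 3932 in the eligible genes, and GC content was 47.7% against 47.0%. Besides the metalloproteinases, neighbours were found among the histones, with H4C14, H4C15 and HIST2H2AA3 on chromosome 1 and H1-2, H2AC6 and H4C8 on chromosome 6. SNORD3B-1, ENSG00000262202 and TRIM16L lie within 1 Mb of each other on chromosome 17, as do SLC1A3 and IL7R on chromosome 5. NEB, DDIT3, C1S, ADPRM and ZNF473 overlap a gene of at least 5 CPM on the opposite strand, and whether counting used strand is not given in the sources used here. The treated mean of these partners was 0.900 times the day 4 mean in RIF1 (NEB), 0.851 in MARS1 and 1.2 in MBD6 (both DDIT3), 0.696 in LPCAT3 (C1S), 1.07 in SCO1 (ADPRM) and 0.870 in VRK3 (ZNF473). Of 25 gene lists, 7 held a member and 18 held none, and 38 of the 52 genes were in no list.

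Near the threshold, the smallest treated level was 1.51 times the higher day 4 untreated level in SHOC1, 1.54 times in HES1 and 1.55 times in AADACP1, just inside, and 1.49 times in FTH1, 1.48 times in IER5L and 1.47 times in SNORD3B-2, just outside. SAA1 passed the minimum level with a treated mean of 5.19 CPM, and SCG2 missed it with 4.83 CPM. When genes were chosen from the libraries numbered 1 alone, 157 met the rule, and 64 of these (40.8%) met the same fold in the libraries numbered 2, against 0.711% of eligible genes. When chosen from the libraries numbered 2, 81 met it and 65 (80.2%) did so in the libraries numbered 1, against 1.43%. Both sets were libraries that the rule used, and the eligible genes were not chosen for height, so these shares are a description.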

How the data were processed

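RNA was sequenced in 12 libraries of MDA-MB-231 cells, 2 per condition, which the methods call biological replicates. The methods give a larger total of RNA samples, and only these 12 were analysed here. The authors trimmed reads (Trimmomatic 0.39), checked them (FastQC 0.11.9), aligned them to GRCh37 (STAR 2.7.5), and counted the uniquely aligned ones within exons. The deposited values are these raw counts per gene, not normalized. Totals of 38380629 to 79169121 counts set the depth, and the common biological coefficient of variation of gene counts in the dose fit was 13.0%. Members with few untreated reads, such as SERPINB2 with 16 and 37 on day 4, carry a larger counting error. Symbols were matched for 55665 of 63568 identifiers, and coordinates are from GENCODE on GRCh37.

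CPM used column totals. Log2 ratios of CPM added 0.5. Counts were fitted with edgeR 4.0.16 (R 4.3.3) after TMM scaling and filterByExpr, with robust quasi-likelihood tests, two-sided, on log10 dose in the 8 treated libraries, and on 6 conditions in all 12. Benjamini-Hochberg adjustment covered all tested genes, with a threshold of 0.05. Fits were tested on simulated data. Treated against untreated levels, and gene lists, have no test. Alternatives were DESeq2 1.42.0, RLE scaling, other filters, no robust estimation, a replicate block, other folds and levels for the rule, and leaving out each library. The test of any difference between doses and its alternatives were added after the values were seen.

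The members, lists, motifs and named genes were chosen with earlier results of these data known. Genes were named in full if among the 10 highest ratios, the 10 highest levels, the 5 largest called slopes per direction, up to 4 per list, the 3 on either side of the threshold, or the 5 highest and lowest day 2 levels relative to treated. The other members were named after their values were seen, and 1 member is not reported in the text here, though the counts and plots over the 52 include it. Same-numbered libraries correlated between -0.30 and 0.36 in their deviations from the condition means, so the numbers were not used as pairs.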

Additional observations from a re-analysis of the deposited data

How the results depend on the processing

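Choosing the genes depended on the limits set. With a fold of 2, 24 identifiers met the rule, with 1.2, 171, with a mean of at least 1 CPM, 175, and with no minimum, 11310, since any level passes over an untreated level of 0. The libraries numbered 1 alone gave 157, those numbered 2 alone 81, and leaving out a library 51 to 87, the highest without C2 replicate 2. The median log2 ratio to C1 was 1.81 with TMM and 1.78 with RLE library sizes, and 1.84 to 2.01 without 1 library, against 1.98. The ratio to C2 was 1.39 to 1.49 without 1 library. Slopes were called for 1645 genes with DESeq2, 1462 with no filter beyond 1 count in total, 421 with the replicate block and 123 to 1008 without 1 library, against 789. Among members, slopes were called for 23 with no filter and for 9 to 15 without 1 library, against 13. Between 0.5 and 0.0005 μM, 505 genes were called with DESeq2, 895 with no filter and 6 to 1412 without 1 library, against 104. The members called there were 15 with DESeq2, 15 with no filter and 2 to 20 without 1 library, against 8. Any difference between doses was called for 3006 genes with DESeq2, 3992 with no filter, 849 with the replicate block and 344 to 4539 without 1 library, against 1297, and for 21 to 36 members without 1 library, against 27. With the replicate block, 13 members had a called slope, 8 differed between 0.5 and 0.0005 μM and 25 differed between doses. Same-numbered libraries correlated between -0.30 (0.0005 and 0.05 μM) and 0.36 (0.05 and 0.5 μM), and whether they share more than a number was not tested. Leaving out 1 library of a dose leaves that dose with 1 library, assumed to vary like the others. Between 0.5 and 0.0005 μM the balance over all genes turned with no filter, to 562 higher and 333 lower, against 19 higher and 85 lower. The called slopes and differences of members kept their direction under every alternative. The causes of these differences were not tested.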
